A study of Mus musculus with 214 samples.

Results

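The 10 genes described here encode cytosolic glutathione S-transferases of mouse liver and were chosen by symbol. Gsta1, Gsta2, Gsta3, Gsta4 and Gm3776 belong to the alpha class, Gstm1, Gstm2 and Gstm3 to the mu class, Gstp1 to the pi class and Gstt1 to the theta class. All 10 were present in both deposited tables, among 18647 genes for WT mice and 19540 genes for Mgmt-/- mice. Both mouse lines were on a C57BL6 background and carried the RaDR and GPT reporter alleles (RaDR+/+;GPT+/+), and the Mgmt-/- line in addition lacked Mgmt in every cell. Male and female pups received NDMA or saline by intraperitoneal injection, 3.5 mg/kg on postnatal day 8 and 7 mg/kg on postnatal day 15. Livers were taken at 5 times counted from the second injection, 3 of them early (days 1, 2 and 5) and 2 in adults (week 10 and month 10), and RNA was measured by 3′ digital gene expression, which counts reads from the 3′ end of polyadenylated transcripts. In the order of these 5 times, WT mice gave 26, 8, 8, 8 and 13 NDMA libraries and 21, 8, 7, 8 and 10 saline libraries. The corresponding Mgmt-/- groups held 12, 8, 8, 8 and 13 NDMA libraries and 12, 7, 6, 8 and 12 saline libraries. Each library is 1 mouse, and litters were assigned whole to a treatment, so p-values measure the spread between mice and litter cannot be told apart from treatment.

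Glutathione S-transferases join the tripeptide glutathione to electrophilic compounds, which can then be exported from the cell and excreted. They are abundant in hepatocytes, and several are known to be induced by electrophiles and foreign chemicals through the factors Nfe2l2 (Nrf2) and Ahr. NDMA (N-nitrosodimethylamine) is turned into a DNA-methylating agent mainly by Cyp2e1, which is concentrated in hepatocytes around the central vein. MGMT removes the methyl group from methylated guanine.

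Libraries were checked against their labels first. Mgmt itself stood at a median of 45.8 normalized counts in WT libraries (range 13.0 to 130) and 1.09 in Mgmt-/- libraries (range 0 to 9.67), so the ranges did not overlap, though the tables of the genotypes were normalized separately. By contrast, 2 Mgmt-/- saline day 5 libraries held kidney transcripts. Their level of Kap, a kidney androgen-regulated gene, was 6147 and 7562, and their summed hepatocyte markers reached only 1596 and 2350, against at least 86003 in the other 94 Mgmt-/- libraries. Both were left out, and the day 5 counts of the 10 genes and of the pathway lists are also given with them. In 2 WT NDMA day 1 libraries the sex-linked transcripts did not match the labelled sex, and the count of changed genes among the 10 was 7 with or without them. Depth ran from 150038 to 4791649 reads in WT libraries and from 713584 to 7740710 in Mgmt-/- libraries. The 4 libraries below 300000 reads were all WT NDMA females, 1 each at day 2, day 5, week 10 and month 10.

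Sequence bears on how these genes can be read, because 3 of the alpha-class genes on chromosome 9, Gsta1, Gm3776 and Gsta2, are near copies of each other. On GRCm38, Gsta4 lies at chr9:78182774-78209349, Gsta1 at chr9:78230656-78242684 and Gm3776 at chr9:78257129-78269166, all on the plus strand, and Gsta2 lies at chr9:78331018-78355788 on the minus strand. Gsta3 lies apart, at chr1:21240589-21265661 on the plus strand. Over the last 200 bases of the transcripts, which 3′ reads sample, Gsta1 was 98.5% identical to Gm3776 and 93.5% identical to Gsta2, and Gsta2 was 97% identical to Gm10639. Gstp1 was 100% identical to Gstp2 over the same stretch. How reads were divided among Gsta1, Gm3776, Gsta2 and Gm10639, and between Gstp1 and Gstp2, is therefore uncertain. The nearest paralogs of Gsta3, Gsta4, the mu genes and Gstt1 shared no more than 73.5% of these bases.

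The RefSeq promoter windows (GRCm38.p6, 250 bases before to 50 after the start) are shown for 4 alpha genes. They are the 3 that rose most in Mgmt-/- mice and Gsta3, which fell. Capitals in the first 3 mark the 2 runs of at least 20 bases, 29 and 26 bases long, that all 3 share letter for letter. Capitals in Gsta3 mark its match to the antioxidant response element core. The windows are, in order, chr9:78230419-78230718 (plus strand), chr9:78256879-78257178 (plus strand), chr9:78347096-78347395 (minus strand) and chr1:21240335-21240634 (plus strand).
Gsta1: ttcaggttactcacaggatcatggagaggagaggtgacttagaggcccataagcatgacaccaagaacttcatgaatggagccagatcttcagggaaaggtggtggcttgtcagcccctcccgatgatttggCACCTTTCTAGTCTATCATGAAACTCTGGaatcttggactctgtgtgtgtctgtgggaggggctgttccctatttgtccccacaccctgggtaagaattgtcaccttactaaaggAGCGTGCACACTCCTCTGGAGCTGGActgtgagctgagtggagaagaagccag
Gm3776: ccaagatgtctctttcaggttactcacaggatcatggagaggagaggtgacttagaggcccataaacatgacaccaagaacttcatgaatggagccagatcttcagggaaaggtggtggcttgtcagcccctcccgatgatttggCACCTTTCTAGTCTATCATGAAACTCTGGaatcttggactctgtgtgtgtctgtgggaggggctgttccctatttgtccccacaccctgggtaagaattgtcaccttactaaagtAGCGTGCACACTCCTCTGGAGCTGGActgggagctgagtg
Gsta2: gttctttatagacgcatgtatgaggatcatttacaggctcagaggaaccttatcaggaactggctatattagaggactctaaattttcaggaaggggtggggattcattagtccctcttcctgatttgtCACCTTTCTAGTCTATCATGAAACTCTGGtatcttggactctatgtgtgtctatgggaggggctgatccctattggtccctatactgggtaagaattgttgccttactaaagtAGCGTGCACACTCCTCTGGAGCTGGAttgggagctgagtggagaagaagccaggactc
Gsta3: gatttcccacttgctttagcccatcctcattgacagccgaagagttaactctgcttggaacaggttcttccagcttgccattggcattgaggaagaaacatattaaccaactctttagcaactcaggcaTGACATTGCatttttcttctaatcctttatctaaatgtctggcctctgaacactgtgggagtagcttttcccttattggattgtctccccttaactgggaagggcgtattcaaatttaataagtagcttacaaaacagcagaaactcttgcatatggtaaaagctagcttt
Over the window, Gsta1 and Gm3776 were 90.7% identical, Gsta1 and Gsta2 75.3%, and Gsta2 and Gm3776 70.3%. The windows of 9 of the 10 genes were searched on both strands for 3 motifs that may overlap. The xenobiotic response element core GCGTG, the letters bound by Ahr, lies inside the second shared run of Gsta1, Gm3776 and Gsta2 and also occurs in Gstm1 and Gstp1; 32.4% of 32851 promoter windows hold it. The antioxidant response element core TGACNNNGC, bound by Nfe2l2, was found only in Gsta3, 121 to 113 bases before its start, against 12.4% of all windows. A p53 half-site was also found only in Gsta3, 39 to 48 bases after the start, against 8.36% of all windows. These matches are descriptions of letters, and binding was not measured.

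The first question was how NDMA changed the 10 genes within each genotype and time. A gene was called changed when limma's Benjamini-Hochberg adjusted p over all genes tested was under 0.05 and its log2 fold change exceeded 0.58 in size. Fold changes are on the log2(normalized count + 1) scale, which understates changes of genes with low counts. In WT livers, 5 genes rose and 2 fell of 9 tested at day 1, where 5.01% of all genes rose and 4.19% fell. At day 2, 1 rose and 2 fell of 8 tested, against 3.33% and 2.91% of all genes. By day 5 none rose and 1 fell of 8 tested, against 2.22% and 1.39%. At week 10 limma called 0 of 9, where 0.0249% of all genes rose and 0% fell, and at month 10 it called 0 of 10, where 0% rose and 0% fell. Genome-wide, 350 of 8048 and 757 of 9254 genes tested had an unadjusted p under 0.05 at those times. Chance alone gives a share of about 0.05, and the week 10 count is below it and the month 10 count above. Both edgeR and DESeq2 also called none of the 10.

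In Mgmt-/- livers some of the 10 genes were called at every time and others were not. At day 1, 6 rose and 3 fell of 10, where 9.06% of all genes rose and 8.64% fell. At day 2, 4 rose and 3 fell, against 12.4% and 7.5%. At day 5, 6 rose and 2 fell, against 11.1% and 6.71%. At week 10, 7 rose and 1 fell, against 7.27% and 3.88%. At month 10, 6 rose and 1 fell, against 4.75% and 2.99%. The median log2 change of the genes was 0.83, 0.86, 1.12, 1.45 and 0.86 at the 5 times, where the median of all genes lay between -0.01 and 0.04. In WT livers the corresponding medians of those tested were 0.79, 0.00, -0.03, -0.03 and 0.30. Gsta1 and Gm3776 passed the filter on days 1, 2 and 5 in Mgmt-/- mice only through their NDMA groups, as did Gm3776 at week 10, so they had to differ and add no support to these counts. Without them 4 rose and 3 fell of 8 at day 1, 2 rose and 3 fell of 8 at day 2, 4 rose and 2 fell of 8 at day 5, and 6 rose and 1 fell of 9 at week 10, with medians of 0.25, 0.45, 0.76 and 1.40. Gsta1 entered the WT day 1 test in the same way, and without it 4 rose and 2 fell of 8 there, with a median of 0.43. Gm3776 did so at WT month 10, where the median without it was 0.24. Genes at 0 in a saline group lie above these medians whether the fitted value or the bound from the read floor is used. Whole-liver RNA cannot tell fewer cells of a type apart from less RNA per cell.

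**Figure D1:**
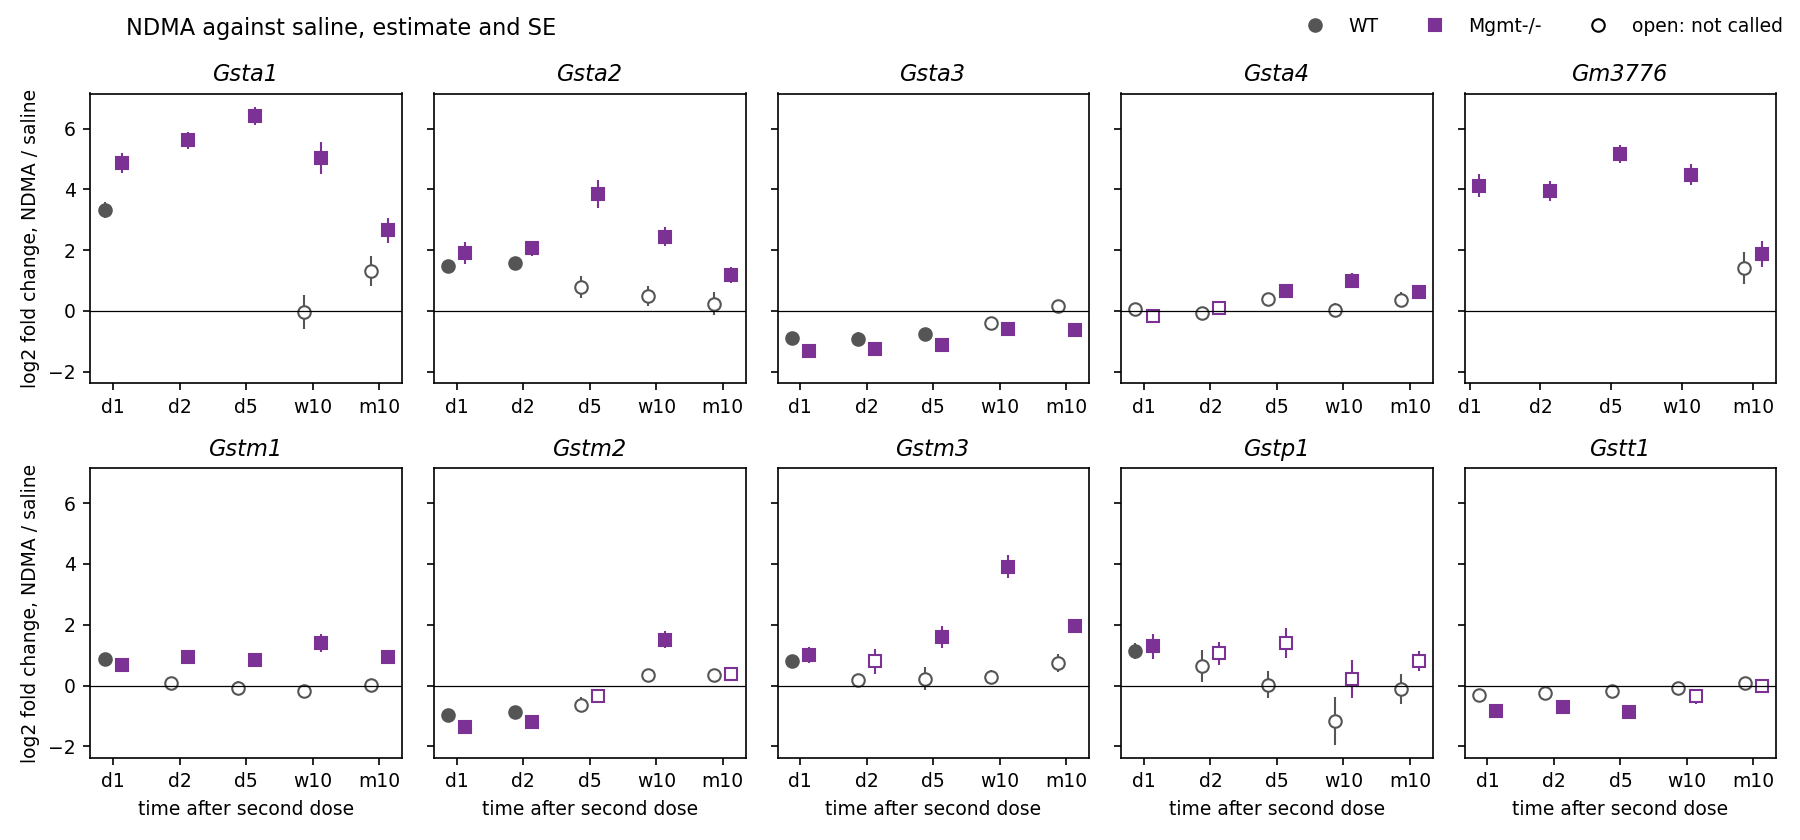
Log2 fold change (NDMA against saline, limma on log2(normalized count + 1)) of each of the 10 genes by time after the second injection, in WT and Mgmt-/- mice. Points are estimates, bars are standard errors, and filled points passed the call. In Mgmt-/- mice Gsta1 ran from 6.43 at day 5 to 2.65 at month 10, and Gsta3 lay below 0 at every time.

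Gsta1 is an alpha transferase whose mRNA is low in untreated mouse liver and strongly inducible. In Mgmt-/- mice it had the largest log2 fold change of the alpha genes at every time, on the log2(normalized count + 1) scale. In Mgmt-/- saline livers at day 1 its lowest, median and highest normalized counts were 0, 0.508 and 8.22, against 14.1, 48.8 and 198 with NDMA. At day 2 it was 0 in all 7 saline livers and 26.5, 45.7 and 93.5 with NDMA, at least 162.2-fold higher when 3 reads over the saline group are taken as the floor. At day 5 the saline values were 0, 0 and 1.82 and the NDMA values 54.8, 101.3 and 180. The groups did not overlap at any of these times, and the day 5 ratio was 436.8 with a 95% interval of 120.7 to 3611. That interval, from 2 saline reads and 1260 NDMA reads, covers counting error only. At week 10 saline livers held 0, 7.41 and 33.9 and NDMA livers 161, 251 and 479, again without overlap. By month 10 the groups overlapped, at 0, 13.8 and 25.3 in saline and 16.4, 56.5 and 377 in NDMA livers. The log2 fold change was 4.86 ± 0.33 (SE) at day 1 and 6.43 ± 0.29 at day 5, given as descriptions with no p since the gene passed the filter there only through the NDMA group. It was 5.03 ± 0.53 (adjusted p = 4.71e-06) at week 10 and 2.65 ± 0.41 (adjusted p = 8.25e-05) at month 10.

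In WT livers Gsta1 entered the day 1 test only through the NDMA group, and its values are a description. Saline values there were 0, 0 and 16.9 and NDMA values 4.07, 15.4 and 37.1, a log2 fold change of 3.31 ± 0.26. At day 2 and day 5 its mean was under the filter of 5 counts and it was not tested. It stood at 0, 2.93 and 13.2 with NDMA at day 2 against 0, 0 and 3.86 with saline, and at day 5 at 0, 3.26 and 31.2 against 0 in all 7 saline livers. At month 10 the estimate was 1.33 ± 0.49 (adjusted p = 0.554). The WT groups overlapped at every time.

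Gm3776, the gene next to Gsta1 with the near-identical 3′ end, was almost unread in young saline livers. In Mgmt-/- mice it was 0 in all 12 saline livers at day 1 and 2.30, 14.3 and 77.5 with NDMA, at least 102.2-fold higher. The day 5 values were 0, 0 and 0.911 with saline and 24.9, 39.2 and 71.0 with NDMA. At week 10 they were 0.866, 3.36 and 5.66 against 35.6, 90.8 and 211. The ratio of group means there was 31.8, above the 26.2 of Gsta1. Saline and NDMA groups were separate at every time but month 10. The log2 fold change was 1.89 ± 0.43 (adjusted p = 0.00425) at month 10. At day 5 it was 5.15 ± 0.30, a description with no p, since Gm3776 passed the filter before month 10 only through the NDMA group. In WT livers it passed only at month 10, again through the NDMA group, at 1.43 ± 0.53 (adjusted p = 0.554).

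Gsta2, a further inducible alpha transferase, was read in every saline liver and rose in all 5 Mgmt-/- comparisons. Its day 5 values were 4.93, 19.0 and 51.0 in saline and 159, 302 and 453 in NDMA livers, with a log2 fold change of 3.84 ± 0.47 (adjusted p = 6.69e-05). The groups were also separate at day 2, at 7.81, 15.4 and 28.4 against 40.5, 74.1 and 103, and at week 10, at 33.6, 137 and 229 against 380, 595 and 1045. At day 1 and month 10 they overlapped, with log2 fold changes of 1.91 ± 0.37 and 1.20 ± 0.26. In WT livers Gsta2 rose by 1.48 ± 0.21 (adjusted p = 1.96e-07) at day 1 and by 1.57 ± 0.19 (adjusted p = 1.62e-04) at day 2. The WT day 2 groups did not overlap, at 11.9, 17.1 and 27.0 in saline and 37.9, 54.1 and 80.1 in NDMA livers.

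**Figure D2:**
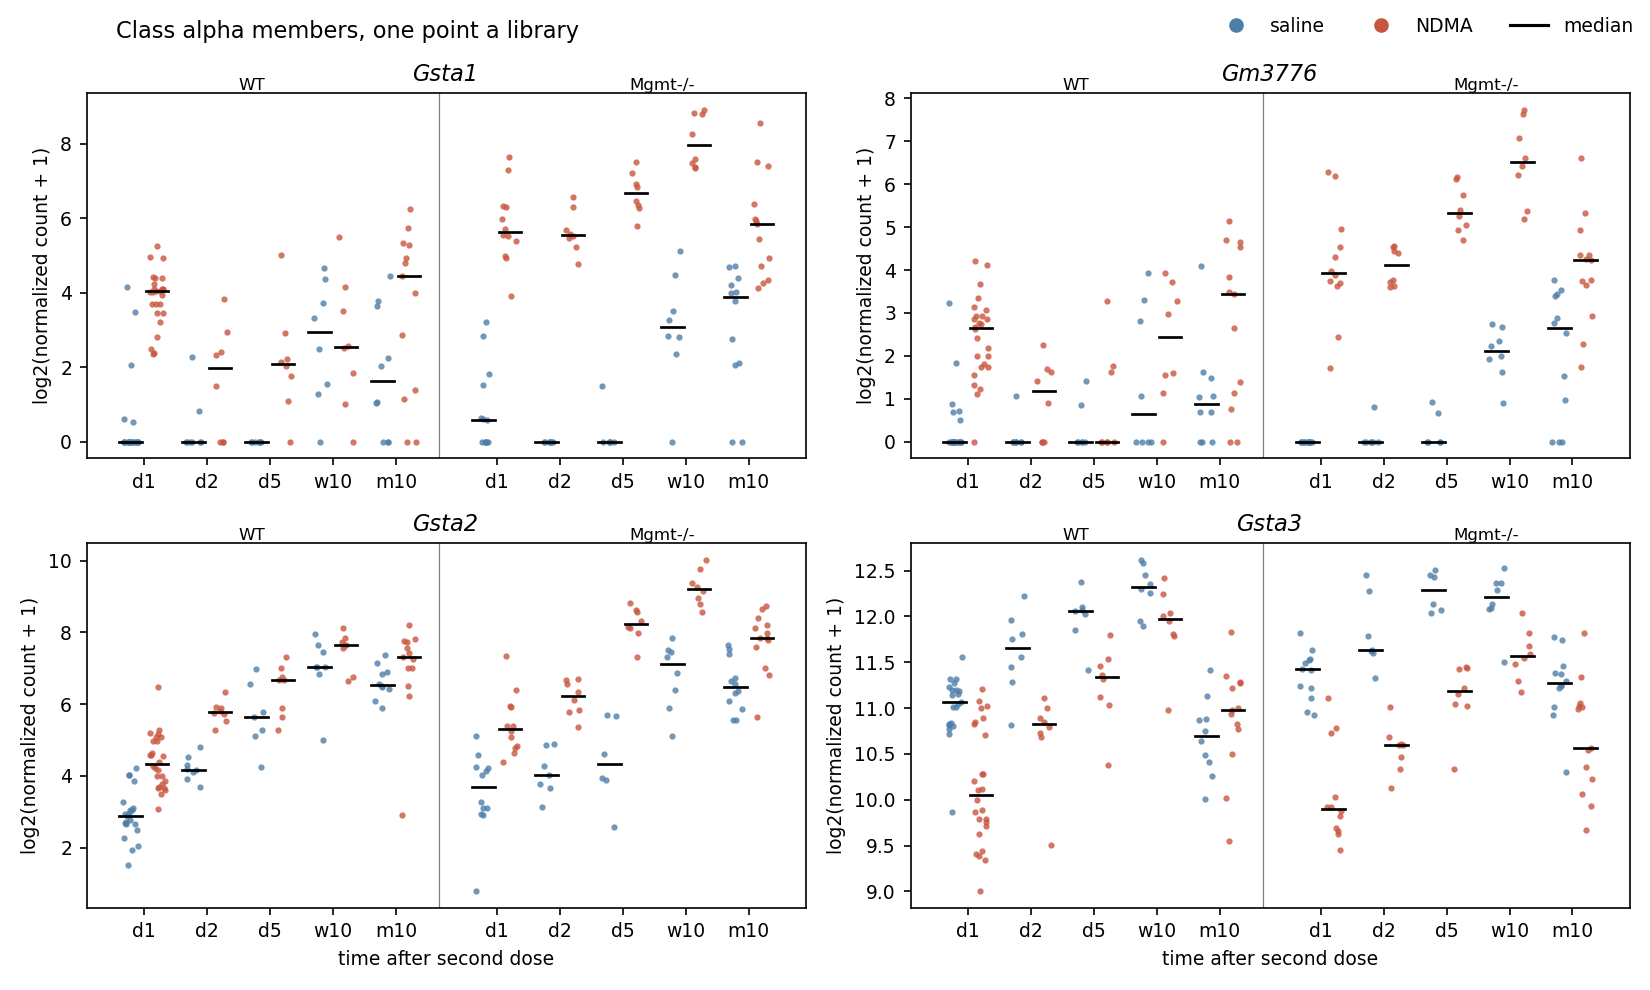
Log2(normalized count + 1) of Gsta1, Gm3776, Gsta2 and Gsta3 in each library by time, genotype and treatment. Points are libraries (1 mouse each) and black bars are group medians. Gsta1 and Gm3776 separate saline from NDMA in Mgmt-/- livers through week 10, while Gsta3 lies lower with NDMA in Mgmt-/- livers and in WT livers through day 5.

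Gsta3, the alpha transferase known for detoxifying aflatoxin epoxide in mice, moved the other way. Saline Mgmt-/- livers held 2568, 3172 and 5602 at day 2 and NDMA livers 1119, 1547 and 2059. At day 5 the values were 4193, 5003 and 5799 against 1288, 2331 and 2801, and the groups did not overlap at either time. The fold change was -1.31 ± 0.16 (adjusted p = 3.49e-08) at day 1, -1.25 ± 0.15 (adjusted p = 9.4e-07) at day 2 and -1.14 ± 0.15 (adjusted p = 3.05e-06) at day 5. Later values were smaller and the groups overlapped. Week 10 gave -0.59 ± 0.19 (adjusted p = 0.0430), a call lost when any of 13 of the 16 libraries was left out, and month 10 gave -0.61 ± 0.17 (adjusted p = 0.0161). The month 10 call was lost with DESeq2, where the change of -0.56 was under the fold threshold, and with treatment as the only term, at -0.59 (adjusted p = 0.0750). In WT livers Gsta3 fell by 0.88 ± 0.14 (adjusted p = 3.67e-06) at day 1, by 0.91 ± 0.21 (adjusted p = 0.0110) at day 2 and by 0.76 ± 0.18 (adjusted p = 0.0246) at day 5 on the log2 scale. It was called in 8 of the 10 comparisons, more than any of the other 9 genes. The WT day 5 call was lost without any 1 of 6 libraries.

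Gsta4, which conjugates the lipid peroxidation product hydroxynonenal, rose in Mgmt-/- mice at day 5, week 10 and month 10. The test of the difference between genotypes, described further on, called it at no time. Its day 5 values were 248, 350.0 and 489 in saline and 375, 602 and 717 in NDMA livers, with a log2 fold change of 0.67 ± 0.15 (adjusted p = 0.00175). The change was 1.00 ± 0.26 (adjusted p = 0.0109) at week 10 and 0.63 ± 0.17 (adjusted p = 0.0131) at month 10, with overlapping groups throughout. In WT livers it stayed between -0.07 and 0.39 and was never called.

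The mu genes lie together on chromosome 3, Gstm3 at chr3:107963696-107969283, Gstm2 at chr3:107981702-107986453 and Gstm1 at chr3:108012255-108017973, all on the minus strand. They did not move as a block. Gstm1, a major hepatic mu transferase, rose in all 5 Mgmt-/- comparisons, from 2814, 4521 and 6368 to 5517, 7576 and 8984 at day 5 and from 1528, 4001 and 5796 to 3839, 9510 and 13880 at week 10. The groups overlapped at both times, with log2 fold changes of 0.85 ± 0.16 (adjusted p = 3.79e-04) and 1.40 ± 0.30 (adjusted p = 0.00204). In WT livers Gstm1 rose at day 1, by 0.87 ± 0.13 (adjusted p = 1.35e-06), and lay between -0.18 and 0.08 at the later times.

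Gstm3 had its widest gap in Mgmt-/- livers at week 10. Saline livers held 53.2, 241 and 388 and NDMA livers 1030, 3355 and 6304, with no overlap. The log2 fold change was 3.92 ± 0.37 (adjusted p = 1.41e-07), against 1.00 ± 0.25 (adjusted p = 0.00445) at day 1, 1.59 ± 0.37 (adjusted p = 0.00774) at day 5 and 1.96 ± 0.24 (adjusted p = 1.73e-06) at month 10. At day 2 it was 0.79 ± 0.42 (adjusted p = 0.199). WT livers gave a call at day 1 (0.79 ± 0.18, adjusted p = 8.68e-04) and at no later time, month 10 being 0.74 ± 0.29 (adjusted p = 0.554).

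In Mgmt-/- mice Gstm2 fell on days 1 and 2 and rose at week 10. Day 2 values were 141, 209 and 299 in saline and 73.4, 86.3 and 131 in NDMA livers, without overlap. At week 10 they were 33.4, 140 and 190 in saline and 174, 295 and 505 in NDMA livers, which overlapped. The log2 fold change was -1.36 ± 0.22 (adjusted p = 2.39e-05) at day 1, -1.22 ± 0.16 (adjusted p = 1.06e-06) at day 2, -0.34 ± 0.21 (adjusted p = 0.283) at day 5 and 1.51 ± 0.28 (adjusted p = 6.59e-04) at week 10. Month 10 gave 0.38 ± 0.22 (adjusted p = 0.291), which was not called. The difference between times was not itself tested. WT livers showed the early fall, -0.96 ± 0.19 (adjusted p = 2.06e-04) at day 1 and -0.88 ± 0.18 (adjusted p = 0.00411) at day 2. Limma called it at no later time, but day 5, at -0.63 (adjusted p = 0.157) with limma, was called lower by edgeR (-0.76, adjusted p = 0.0315) and DESeq2 (-0.72, adjusted p = 0.0426), and by limma without the shallow library (-0.73, adjusted p = 0.0330).

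Gstp1, the pi transferase, lies at chr19:4035407-4037985 on the minus strand and spread widely within groups. In Mgmt-/- livers at day 1 it ran 6.77, 74.4 and 153 with saline and 38.2, 130 and 704 with NDMA. It was called at day 1 only, at 1.29 ± 0.41 (adjusted p = 0.0235) in Mgmt-/- and 1.13 ± 0.26 (adjusted p = 0.00112) in WT livers. The estimates of 1.05 ± 0.38 (adjusted p = 0.0590) at day 2 and 1.40 ± 0.48 (adjusted p = 0.0586) at day 5 in Mgmt-/- mice missed the threshold. Its call in Mgmt-/- mice at day 1 was lost with edgeR (adjusted p = 0.0674), and both edgeR (adjusted p = 0.0435) and DESeq2 (adjusted p = 0.0115) called it higher at month 10. Without the WT day 2 library of 150038 reads it was also called at WT day 2, at 1.18.

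Gstt1, the theta transferase known for acting on small halogenated compounds, lies at chr10:75783813-75798584 on the minus strand and fell in young Mgmt-/- livers. Its values were 1040, 1197 and 1632 in saline and 666, 769 and 815 in NDMA livers at day 2. At day 5 they were 1407, 1448 and 1755 against 632, 798 and 962, and both pairs of groups were separate. The log2 fold change was -0.83 ± 0.13 (adjusted p = 7.69e-06), -0.72 ± 0.10 (adjusted p = 6.9e-06) and -0.89 ± 0.10 (adjusted p = 4.42e-07) at days 1, 2 and 5, and -0.36 ± 0.25 (adjusted p = 0.42) and -0.02 ± 0.12 (adjusted p = 0.95) at week 10 and month 10. In WT livers the day 1 change of -0.33 ± 0.11 (adjusted p = 0.0235) was under the fold threshold. The Mgmt-/- day 2 fall dropped under that threshold, to -0.55, when all libraries were scaled to the same total. Without 1 saline liver at week 10, whose Gstt1 was 244 against at least 902 in the other 7, Gstt1 was called at -0.61.

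**Figure D3:**
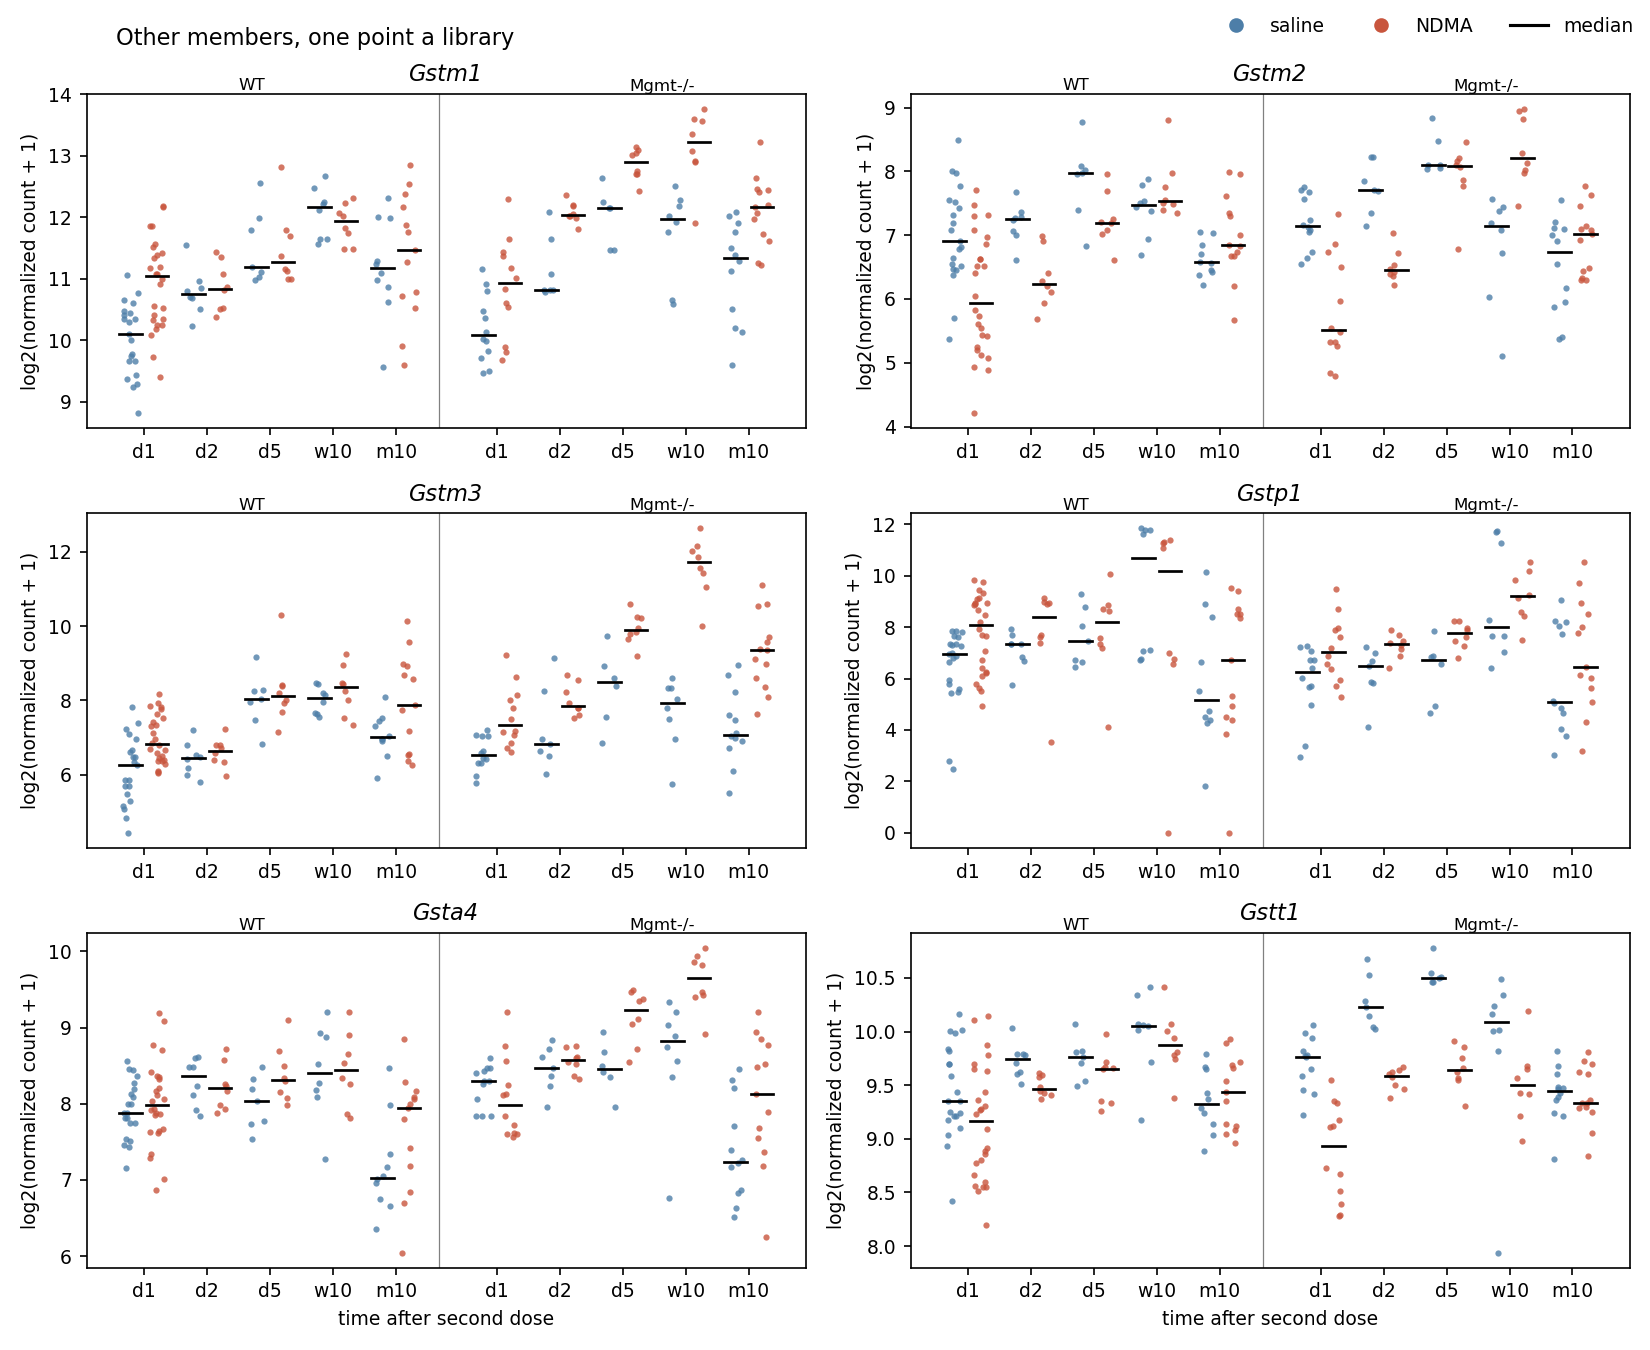
Log2(normalized count + 1) of the mu, pi and theta genes and of Gsta4 in each library by time, genotype and treatment. Points are libraries (1 mouse each) and black bars are group medians. Gstm3 separates the groups in Mgmt-/- livers at week 10 (saline up to 388, NDMA from 1030), Gstt1 separates them at day 2 and day 5, and Gstp1 spreads widely in adult groups of both treatments.

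Within-batch fits were made at day 1, where several library batches each held both treatments. In Mgmt-/- mice the batch named 191212Eng gave 5 higher and 3 lower of 10, where 9.33% of all genes were higher and 8.03% lower, and 200803Eng gave 4 and 3, against 2.64% and 2.86%. Gsta1 was 5.43 and 3.74 in these batches and Gsta3 -1.26 and -1.41. In WT mice 191212Eng gave 4 higher and 2 lower of 9, against 5.44% and 5.13% of all genes, and 210901Eng gave 5 and 2, against 6.36% and 5.36%, with Gsta1 at 3.98 and 3.75. The WT batch 200803Eng gave 0 of 9, with Gsta1 at 1.26, Gsta2 at 0.38 and Gsta3 at -0.61 (limma adjusted p = 0.9999 for each). Limma called no gene of that batch at all. There 264 of 8965 genes had an unadjusted p under 0.05, below the share of 0.05 that chance alone gives. Fits of a single batch rest on fewer livers than the whole day 1 group. The 2 WT livers whose sex-linked transcripts did not match their label were kept in them. Gsta1 and, in Mgmt-/- mice, Gm3776 are among the called genes of these batches and add no support to the counts. The WT mice of day 2, day 5 and week 10 had 1 batch for each sex, and the effects of sex and of batch cannot be told apart in them. The other Mgmt-/- times were single batches.

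Adding the 2 kidney-marker libraries to the day 5 saline group left 2 called genes in place of 8, both higher, where 7.17% of all genes were higher and 3.14% lower. With them Gsta2 was 2.31 (adjusted p = 0.208), Gsta3 -0.11 (adjusted p = 0.946) and Gstt1 -0.16 (adjusted p = 0.866), and the 2 called were Gsta1 and Gm3776, which entered the test only through the NDMA group and add no support. Scaling every library to the same total moved the median of all genes in Mgmt-/- comparisons up to between 0.17 and 0.24 at every time before month 10. All genes called then split 1635 higher and 512 lower at day 1, in place of 911 and 869. The splits were 1681 and 413 in place of 1170 and 710 at day 2, 1451 and 412 in place of 1037 and 624 at day 5, and 1162 and 177 in place of 704 and 376 at week 10. In WT mice they were 526 and 279 in place of 452 and 378 at day 1, and 384 and 181 in place of 285 and 249 at day 2. No gene of the 10 changed direction among its called values, though Gsta3 at week 10 was -0.38 (adjusted p = 0.125) and lost its call.

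Markers of pericentral hepatocytes and of other cells moved in the same libraries. Of the 7 pericentral hepatocyte markers, of which Cyp2e1 was the most abundant, 6 of 6 tested were lower in Mgmt-/- livers at day 1, 4 of 5 on days 2 and 5 and again at week 10, and 3 of 7 at month 10. In WT livers 5 of 5 were lower on days 1, 2 and 5, and limma called 0 of 5 at week 10 and 0 of 7 at month 10. Their summed median was 5476 in saline and 443 in NDMA livers of Mgmt-/- mice at day 1, and 8123 and 3845 at week 10. WT sums were 5674 and 734 at day 1 and 7741 and 9422 at week 10. Of the 5 hepatocyte markers, led by Alb, 3 were lower in Mgmt-/- livers on days 1 and 2, and 1 was lower on day 5 and again at week 10, with summed medians of 302800 and 196700 at day 1. The part of these markers in the results was not tested.

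Other cell types were read at lower levels. The summed 5 cholangiocyte markers, led by Spp1, had medians of 86.9 in saline and 825 in NDMA livers of Mgmt-/- mice at week 10, and 87.0 and 366 at month 10, with 1 of 2 tested markers called higher at each. At day 5 the same sum was 326 in saline and 118 in NDMA livers, and the 1 marker tested was lower. Day 1 sums were 213.9 and 136.4 in Mgmt-/- livers, with 1 of 2 lower, and 192.5 and 321 in WT livers, with 1 of 2 higher. The 5 proliferation markers, led by Birc5, summed to 279 and 584 at day 2, with 3 of 5 tested higher, and to 20.0 and 104 at week 10, with 3 of 3 higher. At the other Mgmt-/- times 1 of 5 was higher at day 1, 2 of 5 at day 5 and 1 of 3 at month 10, and limma called none in WT livers. Macrophage and Kupffer markers, led by Clec4f, gave 1 higher and 3 lower of 6 in Mgmt-/- livers at day 1, 3 higher at day 2, 2 higher at day 5 and 1 higher at each adult age. In WT livers 1 was higher and 1 lower at day 1, 2 were lower at day 2, and limma called none later. The sole T cell marker tested was higher at day 1, day 2 and day 5 in both genotypes, with summed medians of 9.74 and 58.5 in Mgmt-/- livers at day 5. These day 5 sums leave out the kidney-marker libraries. No kidney marker passed the filter in any comparison that left out the kidney-marker libraries. With those libraries all 5 were tested at Mgmt-/- day 5, and limma called none. The part of all these markers in the results was not tested.

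The next comparison asked whether the NDMA response itself differed between genotypes. It was fitted with edgeR on whole reads recovered from both tables, and differences are log2 changes in Mgmt-/- minus those in WT mice. At day 1 edgeR called none of the 10, where 0% of all genes were higher and 0.00963% lower and 988 of 10379 genes had an unadjusted p under 0.05. At day 2, where 2.48% of all genes were higher and 1.46% lower, Gstm1 differed by 0.96 (adjusted p = 0.0313). Gsta1 was also past the threshold there, at 5.93, but it was at 0 in all 7 Mgmt-/- saline livers and under the filter in WT mice. It entered the test through the Mgmt-/- NDMA group, and its fitted difference depends on the prior count and is no bound. At day 5 only Gsta2 was called, at 2.95 (adjusted p = 0.0096), against 1.29% and 0.859%, and it turned to -0.77 and lost the call when the kidney-marker libraries were kept, where 0.554% and 0.178% of all genes were called. Limma on log2 CPM, a scale of reads relative to each library's total, called 4 higher there (2.24% and 0.467% of all genes), Gsta2, Gstm1 at 1.09, and Gsta1 and Gm3776, which entered through the Mgmt-/- NDMA group. Gstt1 at -0.69 (adjusted p = 0.0501) was called lower without the shallow libraries, at -0.67 (adjusted p = 0.0301).

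Week 10 gave 6 higher of 10, where 3.33% of all genes were higher and 2.46% lower. One of the 6, Gm3776 at 4.41, was under the filter in WT mice and entered only through the Mgmt-/- NDMA group, so it adds no support, and 5 of the other 9 were called. Gsta1 differed by 4.41 (adjusted p = 3.37e-04) and Gsta2 by 1.88 (adjusted p = 0.00898). Gstm3 differed by 3.52 (adjusted p = 1.22e-06), Gstm1 by 1.52 (adjusted p = 0.00236) and Gstm2 by 1.11 (adjusted p = 0.0414). These 5 were all 3 mu genes and 2 of the 3 near-identical alpha genes. In the same test proliferation markers were higher for 3 of 3 (median 2.03), cholangiocyte markers for 1 of 2 (2.23) and macrophage and Kupffer markers for 1 of 6 (0.59). Pericentral markers were lower for 3 of 5 (-1.165) and hepatocyte markers for 1 of 5 (-0.65). The part of these markers in the result was not tested. At month 10 none of the 10 was called, against 0.897% and 0.636% of all genes. Gstm3 stood at 1.37 (adjusted p = 0.0600) and Gstm1 at 0.83 (adjusted p = 0.0980). Both were called without the shallow WT library, at 1.44 and 0.94. Except at day 1 and month 10, the genotypes shared no batch, and levels of the genotypes cannot be told apart from batch, while each response was taken within its own batches.

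Levels in saline livers were then followed over age, which shows the course of the genes without NDMA. Between day 1 and week 10, 3 genes rose and none fell of 8 tested in WT mice, where 4.01% of all genes rose and 5.47% fell. The same 3 rose of 9 in Mgmt-/- mice, where 7.35% rose and 9.44% fell. Gsta2 rose by 2.84 ± 0.56 (limma adjusted p = 1.86e-04) in WT and 2.68 ± 0.54 in Mgmt-/- mice, Gstm1 by 2.18 ± 0.36 and 1.99 ± 0.34, and Gsta3 by 1.36 ± 0.32 and 0.88 ± 0.21. By their replicate labels, no WT batch held day 1 livers together with day 5 or week 10 livers. With batch in the model, these WT changes rest on month 10 livers, some sharing a batch with day 1 and others with the ages between. In Mgmt-/- mice day 1 livers shared batches with day 5 and with week 10 livers, so counts of the genotypes are not alike here. The rise of Gstm1 was already called from day 1 to day 5, at 1.69 ± 0.36 (adjusted p = 0.0166) in WT and 1.59 ± 0.30 in Mgmt-/- mice. That interval gave 1 higher of 8 in WT mice, where 0.243% of all genes rose and 0.188% fell, and 4 higher of 9 in Mgmt-/- mice, where 2.21% rose and 3.02% fell. The 4 were Gstm1, Gsta3 (0.88 ± 0.18), Gstm3 (1.80 ± 0.44) and Gstt1 (0.76 ± 0.21), and only 1 gene of the 9, Gsta2, was called when the kidney-marker libraries were kept, against 1.4% and 2.47% of all genes. Keeping them also ended the Mgmt-/- call of Gsta3 from day 1 to week 10 (adjusted p = 0.294). Without the batch term, 5 genes in WT and 6 in Mgmt-/- mice rose from day 1 to week 10, where 11.8% of all genes rose and 25.1% fell in WT and 13% and 17.4% in Mgmt-/- mice. From day 1 to day 5 the same change of model gave 5 higher in WT mice, against 5.43% and 5.64% of all genes. From day 1 to week 10 proliferation markers were lower for 5 of 5 in each genotype, with median log2 changes of -3.79 in WT and -3.54 in Mgmt-/- mice. Pericentral markers were higher for 2 of 6 in WT (median 1.51) and 4 of 6 in Mgmt-/- mice (1.05). The part of these markers in the result was not tested.

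Several of the genes fell from week 10 to month 10. In WT mice 6 fell and none rose of 8, where 39.8% of all genes rose and 21.2% fell, and in Mgmt-/- mice 3 fell and none rose of 9, where 31% rose and 20% fell. Gsta3 fell from 3816, 5134 and 6292 to 1032, 1659 and 2729 in WT saline livers, which did not overlap, and its fold change was -1.60 ± 0.18 (adjusted p = 3.13e-11). In Mgmt-/- saline livers it was 2890, 4755 and 5912 at week 10 and 1266, 2478 and 3513 at month 10, a change of -0.91 ± 0.15. Gstp1 fell by 3.05 ± 0.58 (adjusted p = 1.67e-05) and 2.85 ± 0.67 on the log2 scale in the 2 genotypes, and Gsta4 by 1.14 ± 0.22 and 1.21 ± 0.23. In WT mice Gstm1 (-0.82 ± 0.20), Gstm2 (-0.63 ± 0.22) and Gstm3 (-0.85 ± 0.30) also fell. In Mgmt-/- mice Gsta1 at 0.09, Gsta2 at -0.24, Gstm2 at -0.29 and Gstm3 at -0.32 were not called, and Gstm1 at -0.57 (adjusted p = 0.0496) and Gstt1 at -0.46 (adjusted p = 0.0240) missed only the fold threshold. The difference between genotypes was not tested here. The median of all genes shifted by 0.36 in WT and 0.18 in Mgmt-/- mice over this interval, by 0.75 and 0.56 when libraries were scaled to the same total, and by 0.05 and 0.04 with edgeR. Relative to that median, the falls are larger than the values given. Scaled to the same total, 3 genes and not 6 were lower in WT mice, where 51.4% of all genes rose and 12.1% fell, and with edgeR 8 of 8 were lower, where 30.5% rose and 29.1% fell. In Mgmt-/- mice these fits gave 2 lower of 9 (46.1% and 9.64% of all genes) and 5 lower of 9 (21.9% and 23.9%). Over the same interval 4 of 5 hepatocyte markers were lower in each genotype, and 1 was higher in Mgmt-/- mice, with median log2 changes of -1.13 in WT and -0.92 in Mgmt-/- mice. Their summed medians, led by Alb, went from 185500 to 138300 in WT and from 187200 to 155500 in Mgmt-/- saline livers. Macrophage and Kupffer markers were lower for 4 of 6 in each genotype (medians -1.18 and -0.93), and pericentral markers were higher for 4 of 6 (1.08 and 0.66). The median change of those of the 10 genes that were tested was -0.84 in WT and -0.46 in Mgmt-/- mice. The part of these markers in the result was not tested.

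**Figure D4:**
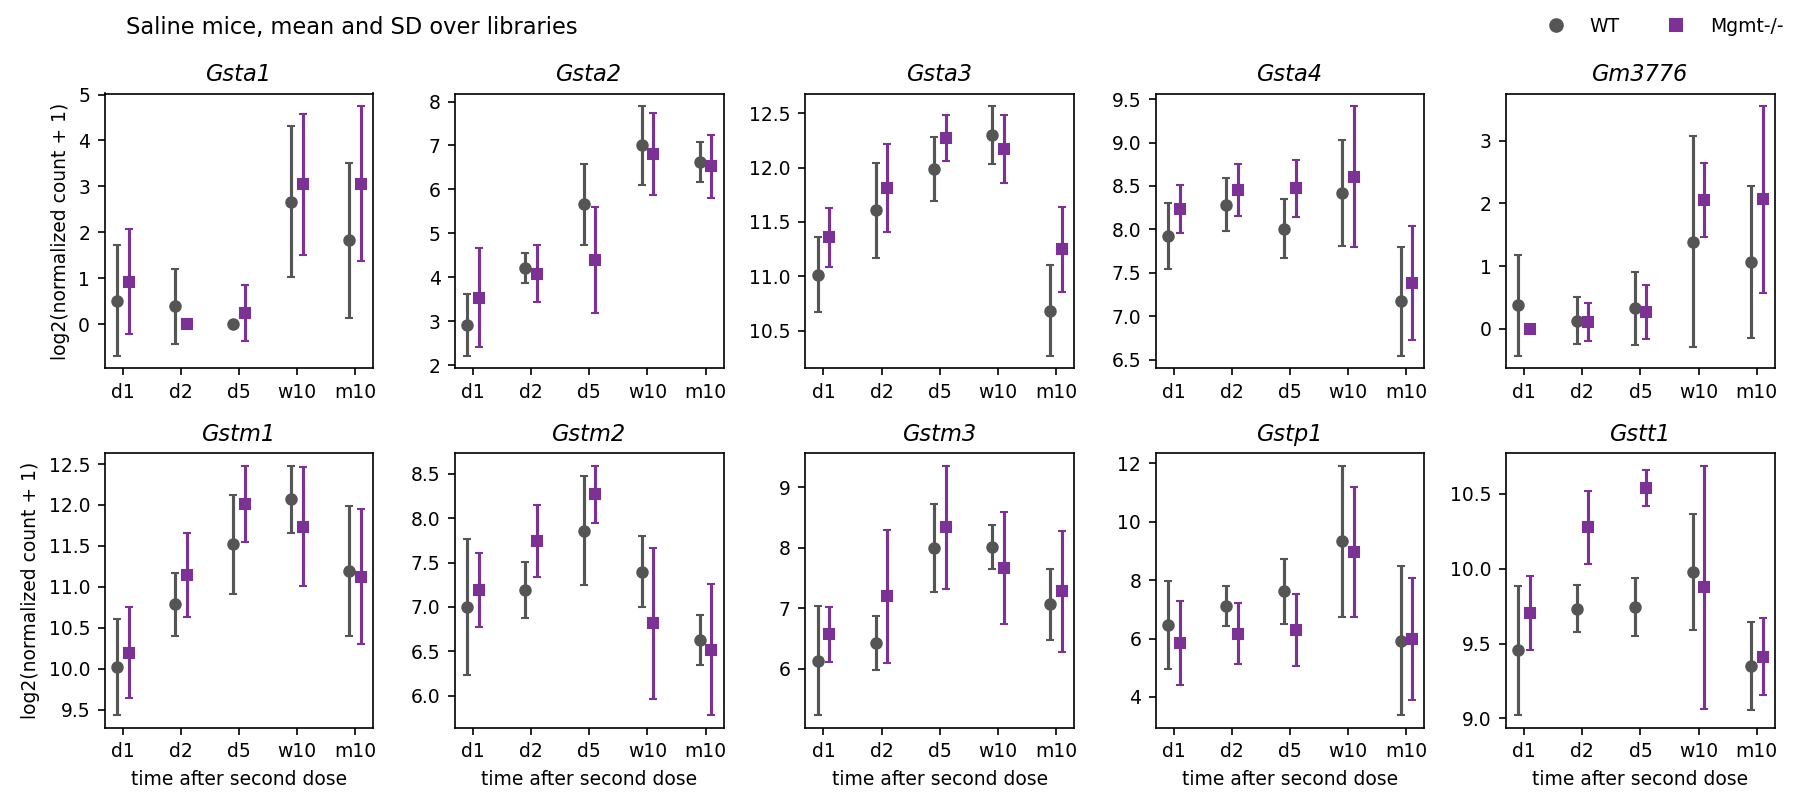
Mean ± SD of log2(normalized count + 1) of the 10 genes in saline livers at each time, for WT and Mgmt-/- mice, whose tables were normalized separately. Gsta2 and Gstm1 rise from day 1 to week 10, and Gsta3, Gsta4 and Gstp1 are lower at month 10 than at week 10 in both genotypes.

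Adult livers of both sexes were pooled in the comparisons above, so the sexes were also compared within saline livers of week 10 and month 10. Of 9 tested, 3 were higher in males and none lower in each genotype. All genes split 6.57% higher and 10.8% lower in WT males and 1.93% higher and 2.28% lower in Mgmt-/- males. Gstp1, known to be higher in male mouse liver, stood at 103.5, 120.5 and 138 in WT saline females at week 10 and 3151, 3528 and 3648 in males, with no overlap. Its log2 difference over both adult ages was 4.55 ± 0.45 (limma adjusted p = 2.06e-06) in WT and 3.37 ± 0.54 (adjusted p = 3.86e-04) in Mgmt-/- mice. In Mgmt-/- saline mice at week 10, females held 131, 198 and 311 and males 83.5, 2911 and 3409. The male at 83.5 also had the lowest saline values of its group for Gsta4 (108), Gstm1 (1528), Gstm2 (33.4) and Gstt1 (244).

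Gsta1 was higher in males by 2.27 ± 0.52 (adjusted p = 0.00265) in WT and 2.13 ± 0.48 (adjusted p = 0.00655) in Mgmt-/- mice. Gstm1 was higher in WT males (0.94 ± 0.19, adjusted p = 8.83e-04) and Gstm3 in Mgmt-/- males (1.13 ± 0.31, adjusted p = 0.0286). For these 2 genes the estimates in the other genotype were 0.78 (adjusted p = 0.117) and 0.48 (adjusted p = 0.0783). Macrophage and Kupffer markers were lower in males for 6 of 6 in WT (median -1.14) and 3 of 6 in Mgmt-/- mice (-1.07), and hepatocyte markers were higher in males for 3 of 5 in WT (0.58) and 0 of 5 in Mgmt-/- mice (0.63). Their part in the result was not tested. In most WT libraries sex and batch cannot be told apart. The test of whether NDMA acted differently in the sexes called none of the 10 in any of the 10 groups, where it called 0.0488% of 92129 tests over all genes. All of those calls were in adult Mgmt-/- mice, 8 higher and 3 lower at week 10 and 23 higher and 11 lower at month 10. In that month 10 fit 1968 of 10066 genes had an unadjusted limma p under 0.05. The smallest adjusted p among the 10 genes was 0.494, for Gsta1 at week 10 in Mgmt-/- mice (-2.79 ± 0.77), where NDMA females held 193, 447 and 479 and males 161, 172 and 309.

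**Figure D5:**
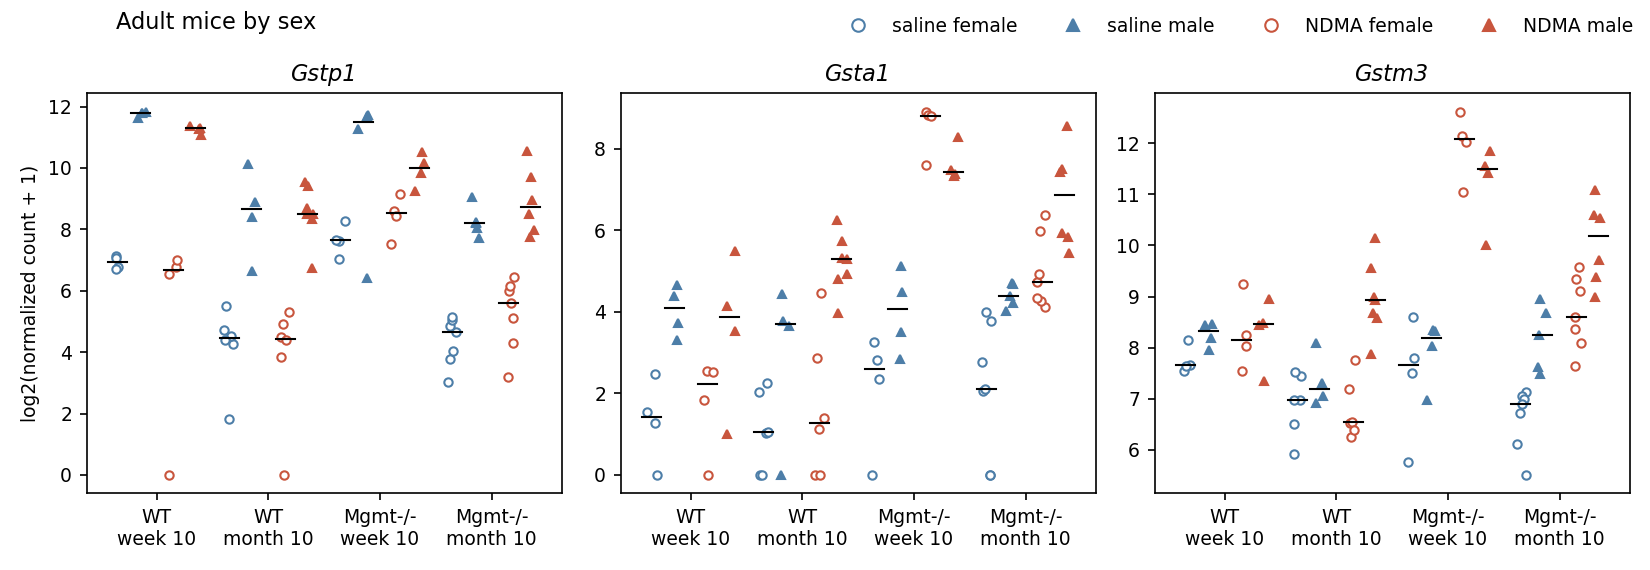
Log2(normalized count + 1) of Gstp1, Gsta1 and Gstm3 in adult libraries by sex (circles female, triangles male), genotype, time and treatment. Black bars are medians. Gstp1 in WT saline livers at week 10 is 103.5 to 138 in females and 3151 to 3648 in males.

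A further 5 lists placed the 10 genes in their pathway, with calls by the same rule and the same shares of all genes as above. For these lists and the marker lists above, it was not worked out which genes passed the filter only through an NDMA group. Mgst2 was tested in only 4 of the 10 NDMA comparisons and Cbr3 in 8. Rises of any gene that entered in that way are descriptions and add no support to the counts. Of 18 other glutathione S-transferases, 4 rose and none fell of 13 tested in WT livers at day 1, and 5 rose and 2 fell of 14 in Mgmt-/- livers. The WT count was 3 of 12 higher at day 2 and 1 of 12 at day 5, and limma called 0 of 12 at either adult age. The Mgmt-/- count was again 5 of 14 higher on days 2 and 5, then 1 of 13 at week 10 and 2 of 13 at month 10. The median log2 change of the list was 0.41 at day 1 and 0.10 at week 10 in Mgmt-/- livers, where that of all genes was 0.02 and 0.04. Mgst2, a membrane-bound transferase, rose by 1.84 ± 0.32, 2.61 ± 0.32 and 3.39 ± 0.34 at days 1, 2 and 5 in Mgmt-/- mice. Gstt2, the theta neighbour of Gstt1, rose by 0.76 ± 0.14, 0.79 ± 0.13 and 1.46 ± 0.13 at the same times, when Gstt1 fell. Gstm4 rose by 0.84 ± 0.15 at day 1, 0.68 ± 0.23 at day 5, 0.78 ± 0.20 at week 10 and 0.58 ± 0.14 at month 10. In Mgmt-/- mice Gstp3 rose by 0.91 ± 0.16, 0.81 ± 0.13 and 0.70 ± 0.12 at days 1, 2 and 5. In WT livers Mgst2 (1.21 ± 0.29), Gstt2 (0.79 ± 0.12) and Gstm4 (0.86 ± 0.13) rose at day 1, and Gstt2 again at day 2 (0.65 ± 0.19). Gstp3 rose in WT livers at day 2 (1.16 ± 0.22) and day 5 (1.22 ± 0.24). Its WT day 1 change of 0.51 ± 0.12 was under the fold threshold. In the WT day 1 batch 200803Eng alone Gstt2 was -0.020.

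Genes that make, recycle or spend glutathione formed the next list. Of 25 listed, 7 rose and 1 fell of 21 tested in Mgmt-/- livers at week 10, 4 rose of 20 at day 1 and 2 rose of 19 at month 10, while on days 2 and 5 as many fell as rose (2 and 3 of 20). The list's median at week 10 was 0.18. In WT livers 1 of 20 rose on each of days 1 and 2, and 1 of 20 fell at day 5. G6pdx, which supplies NADPH for glutathione recycling, rose in all 5 Mgmt-/- comparisons, by 0.72 ± 0.27 at day 1 and 1.17 ± 0.34 at week 10, though in the day 1 batch 200803Eng alone it was -0.30 (adjusted p = 0.838). Gpx3, a secreted glutathione peroxidase, rose by 2.37 ± 0.43 at week 10 and 1.84 ± 0.29 at month 10, and Gpx4, which reduces lipid peroxides, by 1.01 ± 0.26 at week 10. Glo1, a glyoxalase that uses glutathione, fell by 0.74 ± 0.11 at day 2 on the log2 scale. Of 13 genes for export and processing of conjugates, at most 1 moved each way in any NDMA comparison, and the median in Mgmt-/- livers lay between -0.14 and 0.29. Abcc6, a hepatocyte transporter, fell by 1.37 ± 0.23 at day 1 in Mgmt-/- and by 1.03 ± 0.19 in WT mice, and Abcc5 rose by 2.04 ± 0.44 at week 10. Nat8, which acetylates cysteine conjugates, rose by 1.11 ± 0.27 at month 10.

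Of 11 regulators listed, 1 rose and 3 fell of 10 on each of days 1 and 2 in Mgmt-/- livers, with medians of -0.05 and -0.25. At day 5, 2 rose and 1 fell of 10, at week 10 1 rose and 1 fell of 10, and at month 10 none rose and 1 fell of 11. In WT livers 1 rose and 1 fell of 10 at day 1, and limma called none later. Nfe2l2 itself rose by 1.15 ± 0.12, 1.25 ± 0.12, 1.16 ± 0.11 and 0.91 ± 0.17 at days 1, 2, 5 and week 10, and by 0.63 ± 0.09 in WT livers at day 1. Ahr fell by 0.79 ± 0.19 at day 1 and 0.95 ± 0.22 at day 2, Nr1i3, the constitutive androstane receptor, by 1.21 ± 0.18 at week 10, and Mafg, a small Maf partner of Nfe2l2, by 0.79 ± 0.17 at day 1. Of 17 other xenobiotic response genes, 8 rose on days 1, 2 and 5 and 6 at week 10 of 15 tested in Mgmt-/- livers, and 4, 5, 4 and 2 fell. The medians were 0.93, 1.05, 0.91 and 0.83. At month 10, 2 rose and 1 fell of 15, with a median of 0.18. In WT livers 7 rose and 1 fell of 15 at day 1, 1 rose and 3 fell at day 2, 2 rose and 2 fell at day 5, and limma called 0 of 14 at either adult age. Cbr3, a carbonyl reductase, rose by 3.19 ± 0.34, 4.99 ± 0.36 and 4.42 ± 0.28 at day 1, day 5 and week 10 in Mgmt-/- mice. Ephx1, the microsomal epoxide hydrolase, rose by 2.82 ± 0.14 at day 1 in Mgmt-/- and by 2.59 ± 0.20 in WT mice. Srxn1, a sulfiredoxin and known Nfe2l2 target, rose by 2.51 ± 0.19 at day 5 and 2.14 ± 0.26 at week 10. Cyp1a2, an Ahr target concentrated around the central vein, fell by 3.50 ± 0.30 at day 1 in Mgmt-/- and 2.42 ± 0.34 in WT mice.

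With the kidney-marker libraries kept, the Mgmt-/- day 5 counts were 2 higher of 15 other glutathione S-transferases, 2 of 21 glutathione genes, 0 of 10 export genes, 2 of 10 regulators and 8 of 15 xenobiotic genes, and limma called none of these lower. Mgst2 was then 3.65, Cbr3 4.40, Srxn1 2.47 and Nfe2l2 0.93, all still called. Gstt2 at 0.88 (adjusted p = 0.164) and G6pdx at 1.02 (adjusted p = 0.0604) were not, and Cyp1a2 stood at 0.74 (adjusted p = 0.807).

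The genes most like Gsta3 and Gsta2, the pair called in the most comparisons, were taken by the root mean square difference of log2 changes over the 10 NDMA comparisons, among 7293 genes tested in all 10. The comparisons of a genotype at a time share no libraries with each other. Akr1c20 (0.156), Mccc2 (0.191), Tst (0.192), Dpys (0.200) and Cxcl12 (0.220) were nearest to Gsta3. Akr1c20, an aldo-keto reductase, changed by -1.24 at day 1 and -1.08 at day 5 in Mgmt-/- livers, beside -1.31 and -1.14 for Gsta3. The genes nearest to Gsta2 lay farther off. They were Lgals3 (0.550), Apoa4 (0.553), Serpina3g (0.584), Btg2 (0.641) and 2010003K11Rik (0.644).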

How the data were processed

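Total liver RNA was made into 3′ digital gene expression libraries, sequenced on an Illumina NextSeq500, aligned to GRCm38 with STAR and counted per gene with ESAT; whether the molecular identifiers were collapsed is not given in the sources used here. The authors deposited normalized counts (unit signal, gene counts divided by DESeq2 size factors) per gene and library, in 1 table per genotype. Levels are therefore not compared between genotypes, apart from the check of Mgmt itself. Of 214 labelled samples, 213 had values, and no other per-sample column was used. In 209 of the 213 columns, 100.0% of values were whole multiples of 1 read (tolerance 0.01), and these reads were used for count tests. The other 4 columns were left out of those tests.

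The main test was limma 3.58.1 (R 4.3.3, trend and robust) on log2(value + 1) for genes with a mean of at least 5, within genotype and time, with sex and library batch as covariates where they could be told apart, and Benjamini-Hochberg adjustment over all genes. The response between genotypes used edgeR 4.0.16 (quasi-likelihood test) on recovered reads. Alternatives were edgeR and DESeq2 1.42.0 on the reads, other pseudocounts and filters, no covariates, scaling to the same total, single batches, the libraries set aside, and leaving out each library of the groups of 8 or fewer. Scripts were tested on simulated data.

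The 10 genes and all lists were chosen with earlier results of these data known. Besides the 10, up to 4 genes of each pathway list were named, those called in the most NDMA comparisons, with ties broken by the larger mean change, and the 5 nearest genes of 2 of the 10. The lists covered other glutathione S-transferases, glutathione synthesis and recycling, export of conjugates, regulators, other xenobiotic genes, and markers of hepatocytes, pericentral hepatocytes, cholangiocytes, macrophages, T cells, kidney and proliferation. A further marker list is not reported here. Kidney-marker libraries were those with Kap over 1000. Promoter windows came from RefSeq (GRCm38.p6), with entries for 9 of the 10, and transcript ends from the GENCODE vM21 annotation. Intervals cover counting error only.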

Additional observations from a re-analysis of the deposited data

Results flagged for a closer look

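Of 128 combinations of gene and group of 4 to 10 libraries, 18 had a library standing apart from the rest by Dixon's criterion, 16 of them the highest of their group. Chance alone marks about 1 in 20 groups of continuous values. That rate does not hold where every other library was at 0, as in some groups of Gsta1 and Gm3776. Causes were not tested.

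A single WT NDMA male at day 5 was the highest of its 8 libraries for 5 genes, with Gsta1 at 31.2 (next 6.61), Gm3776 at 8.67 (next 2.4), Gstm1 at 7236 (next 3541), Gstm3 at 1259 (next 341) and Gstp1 at 1074 (next 462). One WT saline male at month 10 held Gm3776 at 16 (next 2.1) and Gstp1 at 1125 (next 473). A Mgmt-/- saline male at day 5 held Gsta1 at 1.82, with the other 5 at 0, and Gstt1 at 1755 (next 1496). A WT saline male at day 2 held Gm3776 at 1.08, with the others at 0, and Gstm1 at 2992 (next 2001).

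Gstt1 was 244 in a Mgmt-/- saline male at week 10 (next 902) and 1170 in a Mgmt-/- NDMA female at week 10 (next 820). Gsta3 was 726 in the WT NDMA day 2 library of 150038 reads (next 1640), and Gstm2 was 445 in the WT NDMA week 10 library of 270673 reads (next 250). Gsta1 stood at 43.8 in a WT NDMA male at week 10 (next 16.8) and at 3.86 in a WT saline female at day 2 (next 0.778). Gm3776 was 0.74 in a Mgmt-/- saline male at day 2, with the others at 0.

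The NDMA response differed between genotypes by edgeR's test for 9 values, in log2 units of Mgmt-/- minus WT. At day 2 these were Gsta1 at 5.93 and Gstm1 at 0.96, and at day 5 Gsta2 at 2.95. At week 10 they were Gm3776 at 4.41, Gsta1 at 4.41, Gsta2 at 1.88, Gstm1 at 1.52, Gstm2 at 1.11 and Gstm3 at 3.52. Gsta1 at day 2 and Gm3776 at week 10 were under the filter in WT mice and entered only through the Mgmt-/- NDMA group, so their values add no support.

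The kidney-marker libraries, used in no main comparison, held Gsta2 at 1507 and 1463, where the 6 other Mgmt-/- saline day 5 libraries reached at most 51. They held Gsta4 at 848 and 600 (others at most 489) and Gm3776 at 1.76 and 1.09 (others at most 0.911).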

How the results depend on the processing

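Over the 10 genes, 2015 of 2120 values under an alternative kept their direction and their side of the threshold, 54 lost and 48 gained a call, and 3 reversed. The cause of each change was not tested unless the alternative's construction shows it.

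For counts of called genes, the WT day 1 count was 0 in batch 200803Eng alone, in place of 7. The WT day 5 count of 1 became 2 with no filter, with edgeR, with DESeq2 and without libraries under 300000 reads, and 0 with treatment alone. The share of all genes called lower in these fits was 0.549%, 4.18%, 4.5%, 3.7% and 0.532%, and the second gene with no filter was higher (0.989% of all genes). In Mgmt-/- mice treatment alone gave 4 higher and 3 lower at day 1 (7.26% and 7.23% of all genes), in place of 6 and 3. At month 10 it gave 5 higher and 0 lower (3.76% and 1.93%), in place of 6 and 1. With the kidney-marker libraries the Mgmt-/- day 5 count was 2 in place of 8, that of day 5 against day 1 in Mgmt-/- saline mice 1 in place of 4, and that of the genotype difference at day 5 was 0 in place of 1. Without library batch, week 10 against day 1 gave 5 in WT and 6 in Mgmt-/- saline mice in place of 3 each, and day 5 against day 1 gave 5 in WT mice in place of 1. Month 10 against week 10 gave 3 lower in WT mice scaled to the same total in place of 6 (12.1% of all genes lower), and 5 lower in Mgmt-/- mice with edgeR in place of 3 (23.9%). Month 10 alone gave 5 genes higher in Mgmt-/- males in place of 3 (6.8% of all genes higher). The genotype difference at day 5 was higher for 4 genes with limma on log2 CPM (2.24% of all genes higher, 0.467% lower). Without libraries under 300000 reads it was called for 2, of which 1 was higher and 1 lower (1.68% and 1.41%), and that at month 10 was higher for 2 in place of 0 (1.31%).

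Leaving out 1 library at a time gave 3 to 4 called genes at WT day 2, 0 to 2 at WT day 5, 0 to 0 at WT week 10, and 7 to 9, 8 to 9 and 7 to 9 at day 2, day 5 and week 10 in Mgmt-/- mice. At WT day 5 it was 0 without any of 6 libraries (D202009, D202010, D202011, D202013, D202015 and D215010), where Gsta3 lost its call, and 2 without D215012 or D215014. Without D215014, the shallow library of that group, 5.48% of all genes were higher and 3.7% lower, against 2.22% and 1.39% with all libraries. For the other libraries left out the share of all genes is not given, so these ranges are descriptions. No paired analysis was possible because each replicate label belongs to 1 mouse and none is shared between groups.

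Reversed values were, in batch 200803Eng alone at day 1, Cbr3 at -0.59 and Gstt2 at -0.020 in WT mice and G6pdx at -0.30 in Mgmt-/- mice. With the kidney-marker libraries they were Cyp1a2 at 0.74 at day 5, Gsta3 at -0.15 and Gstm3 at -0.018 for day 5 against day 1 in Mgmt-/- saline mice, and Gsta2 at -0.77 for the genotype difference at day 5. Depth limits Gsta1 and Gm3776 in saline livers of days 1, 2 and 5, which held few or no reads of them.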
